A study of Mus musculus with 12 samples.

Results

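Of the genes measured in hind limb muscle of αB-crystallin/HspB2 knockout (KO) and wild-type (WT) mice, 5 are described here, BC048679, Chodl, Npnt, Rhbdl3 and Cd28. They are 5 of 22923 gene symbols, chosen by their diet difference in WT mice, normal chow against high fat diet. The question asked of them is whether KO mice showed the same response. Each has 1 row in every file, and all 5 passed the filter on low values (3 or more libraries with FPKM no lower than 1), as did 11945 genes in all. FPKM, the fragments of a transcript divided by its length and by the fragments mapped in the library, is a level that can be set beside that of other genes.

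RNA was sequenced from proximal hind limb muscle of male FVB/N mice (FVB in the labels) at 22 weeks of age, with 3 mice in each of 4 groups. The groups were WT on normal chow, WT on high fat diet, KO on normal chow and KO on high fat diet, and mice on these diets are called chow-fed and fat-fed. The WT mice, littermates of the KO mice, carry Flox in their sample titles, a name the labels do not explain. KO mice lack both αB-crystallin (Cryab) and HspB2 (Hspb2), small heat shock protein genes that lie side by side, in every tissue, so an effect in muscle fibres cannot be told apart from one that starts elsewhere. Groups follow the titles, because the genotype label of 6 samples contradicts the title. Cryab was between 412 and 837 FPKM in the libraries titled WT and between 0.845 and 1.75 FPKM in those titled KO, and Hspb2 was between 81.5 and 103.1 FPKM against 0.353 to 1.92 FPKM. All 12 libraries therefore stood with the genotype of their title. Markers of muscle fibres (10 genes) summed to between 37605 and 82924 FPKM. Acta1, the skeletal muscle actin, was listed at 0 in replicate 1 of the chow-fed WT mice and replicate 2 of the fat-fed KO mice, the latter the lowest sum, and at 22322 to 35165 FPKM elsewhere. Myh4, a fast myosin, was listed at 0 in all 12 libraries, so a listed 0 need not mean absence. Read numbers are unknown, but the spacing of the lowest values placed the deepest library at 1.36 times the depth of replicate 1 of the chow-fed WT mice. Of the chow libraries, 3 were rich in lymphocyte genes, namely replicate 2 of the WT mice and replicates 1 and 3 of the KO mice. Their summed T cell markers (10 genes) were 39.0, 45.8 and 46.1 FPKM, against 1.02 to 2.75 FPKM in the other 9 libraries.

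A high fat diet raises the supply of fatty acids to muscle, and fibres answer in part through nuclear receptors of the PPAR family, which switch on enzymes of fatty acid oxidation. The 5 genes are not part of that textbook programme. BC048679 is a protein-coding gene still known by the number of a cDNA clone. Chodl encodes chondrolectin, a membrane protein with a C-type lectin domain that is known from muscle and motor neurons. Npnt encodes nephronectin, a secreted protein of the extracellular matrix that binds the integrin made of Itga8 and Itgb1. Rhbdl3 encodes a member of the rhomboid family, whose active members are proteases that cut other proteins within the membrane. Cd28 encodes the receptor through which Cd80 and Cd86 on antigen-presenting cells co-stimulate T cells.

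In WT mice BC048679 and Chodl were higher on high fat diet and Npnt, Rhbdl3 and Cd28 lower, which is how they were picked. In KO mice all 5 differences pointed the same way as in WT mice, and all 5 were smaller. The choice of genes by a large WT difference favours smaller KO ones, and the share over all genes was not counted. High fat diet and chow libraries of the KO mice did not overlap for BC048679, Chodl and Cd28, and they overlapped for Npnt and Rhbdl3. None of the 5 KO differences passed an adjusted p of 0.05 in limma, a linear model fitted across all genes on log2(FPKM + 1). That threshold was passed by 0 of 11945 genes (0%) between the diets in KO mice, while 1349 genes (11.3%) had an unadjusted p under 0.05. Of the 5 genes, 3 had an unadjusted p under 0.05 in KO mice, the same 3 whose groups did not overlap. Among all genes tested, 16.9% had diet groups that did not overlap in KO mice, 10.7% with the higher level on high fat diet and 6.14% with the lower. In both genotypes, and in the same direction, the diet groups were apart for 1.61% of all genes tested and for 3 of the 5 genes. In WT mice, where 13.1% of all genes had diet groups apart, that separation is part of how the 5 genes were picked. The 1.61% is therefore too low a share to set beside the 3 of 5. Of the 1562 genes with diet groups apart in WT mice, 192 were also apart in KO mice in the same direction. The 2 diet differences had the same sign in 61.9% of all genes.

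**Figure D1:**
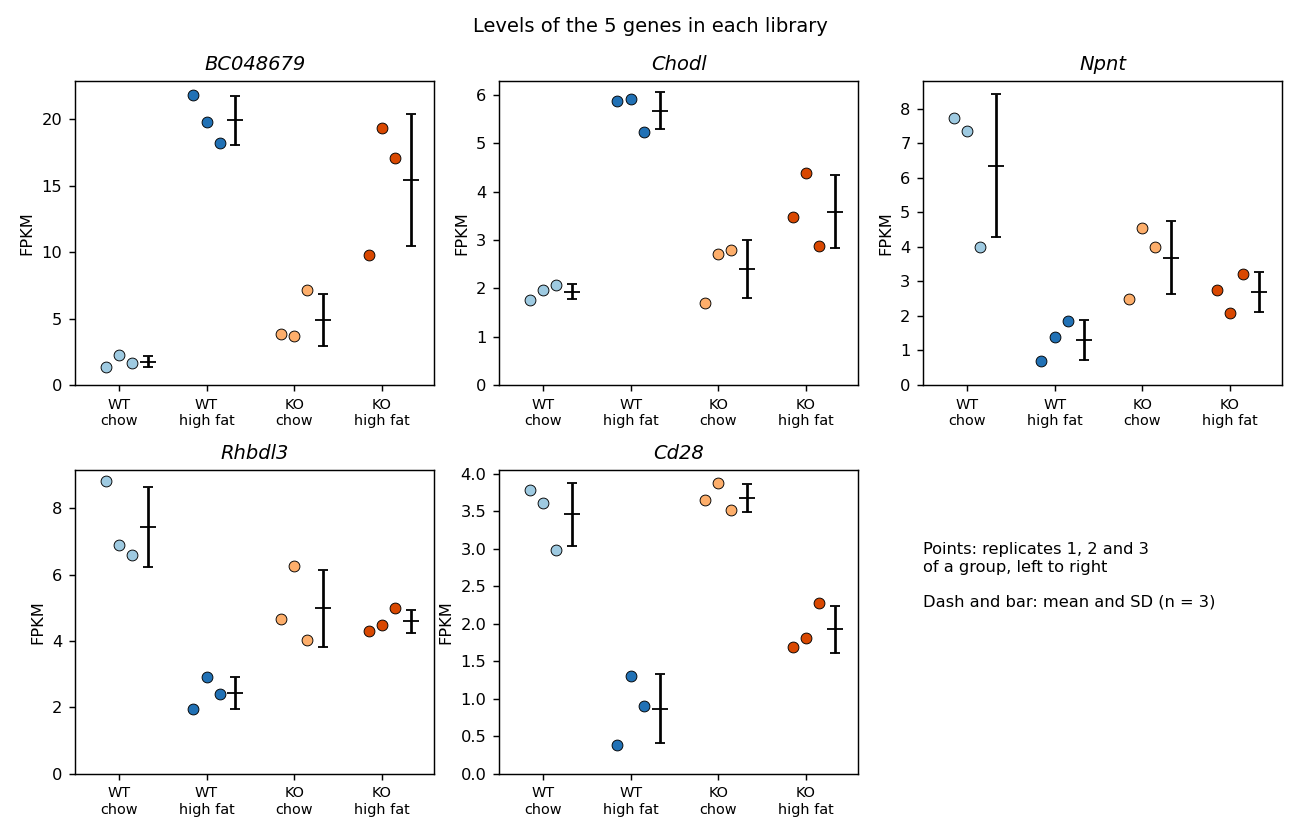
Level of each of the 5 genes, in FPKM, in the 12 libraries, with points for replicates 1 to 3 of each group from left to right and a dash and bar for the mean and SD (n = 3). BC048679 lay between 18.2 and 21.9 FPKM in fat-fed WT mice and between 9.81 and 19.3 FPKM in fat-fed KO mice, while Rhbdl3 lay between 4.03 and 6.27 FPKM in the KO mice whatever the diet.

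BC048679 is a minus-strand gene of chromosome 7 (bases 81494275 to 81498281, GENCODE M21 annotation of GRCm38) with 3 annotated transcripts and no other gene overlapping it. The 250 bases before its RefSeq start site (GRCm38.p6, minus strand, chr7:81498331-81498580) are shown because this gene and Chodl were the members that were higher on high fat diet. Capitals mark matches on either strand to CANNTG, the E-box bound by helix-loop-helix factors such as the myogenic ones.
BC048679: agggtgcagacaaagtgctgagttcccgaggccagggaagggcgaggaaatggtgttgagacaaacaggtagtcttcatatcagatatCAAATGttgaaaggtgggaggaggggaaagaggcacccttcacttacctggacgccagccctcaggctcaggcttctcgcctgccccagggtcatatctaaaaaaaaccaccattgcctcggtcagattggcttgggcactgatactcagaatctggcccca
The window holds 1 E-box match, and 66% of 27025 such windows in the RefSeq table hold at least 1. AGGTCA, the hexamer bound by nuclear receptors of the PPAR kind, was not found in it on either strand. Of all windows, 13.8% hold that hexamer. Npnt, a member that was lower on high fat diet, has 1 match, at -188 from 1 of its 2 RefSeq start sites. The motifs can share letters, since AGGTCA ends in the CA that begins an E-box, and a match is only a run of letters.

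The level of BC048679 was 1.38, 2.23 and 1.67 FPKM in chow-fed WT mice and 21.9, 19.8 and 18.2 FPKM in fat-fed WT mice. All 3 WT mice on high fat diet were thus far above all 3 on chow, with means that differed 11.3-fold. Chow-fed KO mice had 3.84, 3.72 and 7.19 FPKM and fat-fed KO mice 9.81, 19.3 and 17.1 FPKM. The KO groups did not overlap either, but their means differed 3.14-fold, with chow libraries above those of the WT mice and replicate 1 on high fat diet below the other two. Among the genes tested, the mean of BC048679 moved from above 14.6% to above 73.9% of genes in WT mice, and from above 37.5% to above 68.3% in KO mice. The diet difference on the log2(FPKM + 1) scale was 2.93 (standard error, SE, 0.25) in WT mice, given as a description. The KO difference was 1.47 (SE 0.25, 95% interval 0.91 to 2.03), and limma gave an adjusted p of 0.13. It was the 18th highest diet difference and had the 11th lowest p of the 11945 genes in KO mice. The exact two-sided permutation p for the 3 KO mice on each diet was 0.1, the smallest that this number of mice allows.

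Chodl is a plus-strand gene of chromosome 16 (bases 78930948 to 78951733) with 5 annotated transcripts and no overlapping gene. The 250 bases before its RefSeq start site (GRCm38.p6, plus strand, chr16:78930698-78930947) are set out in the same way as those of BC048679.
Chodl: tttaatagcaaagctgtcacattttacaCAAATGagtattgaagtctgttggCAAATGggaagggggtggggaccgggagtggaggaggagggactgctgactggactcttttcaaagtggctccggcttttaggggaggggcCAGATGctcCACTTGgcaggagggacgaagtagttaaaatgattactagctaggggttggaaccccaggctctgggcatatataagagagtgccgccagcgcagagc
It holds 4 E-box matches, and no AGGTCA on either strand. Chodl was 1.76, 1.96 and 2.065 FPKM in chow-fed WT mice and 5.88, 5.92 and 5.22 FPKM in fat-fed WT mice. The WT groups were tight and well apart. Chow-fed KO mice had 1.70, 2.70 and 2.79 FPKM and fat-fed KO mice 3.48, 4.39 and 2.88 FPKM. The KO groups did not overlap, but the highest mouse on chow and the lowest on high fat diet were almost level. Means on high fat diet were 2.94 times those on chow in WT mice and 1.49 times in KO mice. The diet difference on the log2 scale was 1.19 (SE 0.15) in WT mice. In KO mice it was 0.43 (SE 0.15, 95% interval 0.11 to 0.76), and limma gave an adjusted p of 0.42.

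Npnt is a minus-strand gene of chromosome 3 (bases 132881745 to 132950291) with 7 annotated transcripts, and a small nuclear RNA gene, Gm23196, lies inside it on the opposite strand. Its level was 7.73, 7.34 and 3.98 FPKM in chow-fed WT mice and 0.704, 1.38 and 1.85 FPKM in fat-fed WT mice. Replicate 3 of the WT mice on chow was lower than the other two, yet still above all WT mice on high fat diet. Chow-fed KO mice had 2.50, 4.53 and 4.01 FPKM and fat-fed KO mice 2.76, 2.07 and 3.22 FPKM. These KO groups overlapped, and both lay between the WT means of 6.35 and 1.31 FPKM. The diet difference on the log2 scale was -1.66 (SE 0.26) in WT mice. In KO mice it was -0.33 (SE 0.26, 95% interval -0.90 to 0.24), and limma gave an adjusted p of 0.59. Without the 3 lymphocyte-rich libraries, which leaves 1 chow-fed KO library, it was -0.60 (SE 0.36), with a limma adjusted p of 1. The integrin subunits that make its receptor were measured too. Itgb1 had means of 59.7 and 61.5 FPKM in chow-fed and fat-fed WT mice, a log2 difference of 0.04 (SE 0.11). Itga8 had log2 differences of 0.13 in WT and -0.11 in KO mice. Of 20 receptor and basement membrane genes listed, 16 were tested and none passed an adjusted p of 0.05 in either genotype, while 5 in WT and 1 in KO mice were lower at an unadjusted p under 0.05. In KO mice 1 was higher at that threshold, as were 6.56% of all genes. It was Col15a1, a collagen of basement membranes, with 0.37 on the log2 scale. The lower ones included Lamb1, a laminin chain, with -0.43 in WT and -0.40 in KO mice on the log2 scale, and Col4a1, a chain of collagen IV, with -0.50 and 0.03. The list's median difference was -0.13 in WT and 0.05 in KO mice, where all genes had medians of -0.01 and 0.03. The same unadjusted threshold was passed with a lower level by 3.7% of all genes in WT and 4.73% in KO mice.

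Rhbdl3 is a plus-strand gene of chromosome 11 (bases 80300912 to 80355955) with 3 annotated transcripts and no overlapping gene. It was 8.82, 6.90 and 6.60 FPKM in chow-fed WT mice and 1.95, 2.92 and 2.40 FPKM in fat-fed WT mice. Every WT mouse on high fat diet was far below every WT mouse on chow. Chow-fed KO mice had 4.67, 6.27 and 4.03 FPKM and fat-fed KO mice 4.31, 4.48 and 4.99 FPKM. All 3 KO mice on high fat diet thus lay inside the range of the KO mice on chow. The diet difference on the log2 scale was -1.30 (SE 0.15) in WT mice and -0.08 (SE 0.15) in KO mice. The KO interval ran from -0.42 to 0.25, with a limma adjusted p of 0.82 and a two-sided exact permutation p of 0.8. Without replicate 2 of the KO mice on chow the KO difference was 0.07, so its sign rests on that library. Without the 3 lymphocyte-rich libraries, a choice made after seeing the data that leaves 1 chow-fed KO library, it was -0.38 (SE 0.19), and limma gave an adjusted p of 1. The rhomboid family was listed too. Of 8 other members listed, 7 were tested and none passed an adjusted p of 0.05 in either genotype, with medians of 0.03 in WT and 0.07 in KO mice. Rhbdd2 had log2 differences of -0.31 in WT and -0.18 in KO mice, and Rhbdd3 had 0.23 in KO mice.

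**Figure D2:**
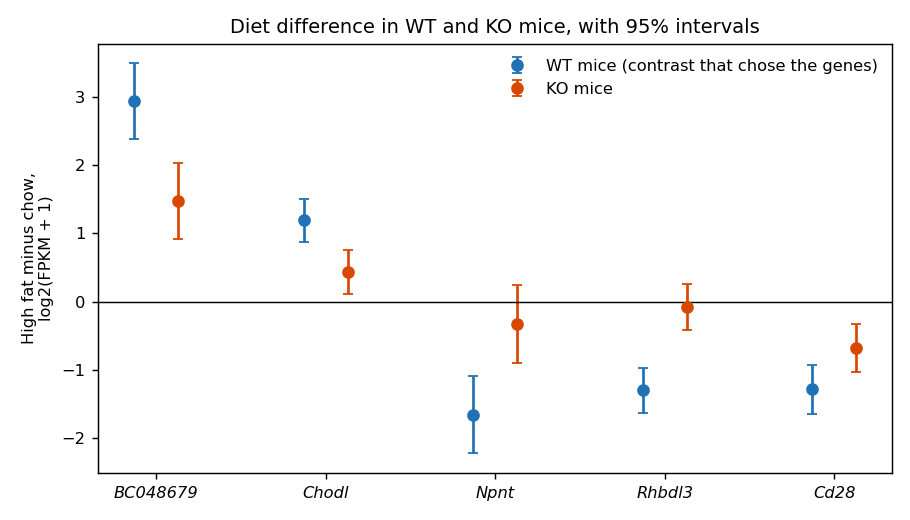
High fat diet minus normal chow, in log2(FPKM + 1), for each of the 5 genes, in WT mice and in KO mice, with points for the limma estimate and bars for its 95% interval. The WT points chose the genes, and the KO points lie nearer to 0 for all 5, from 1.47 for BC048679 to -0.68 for Cd28, with intervals that include 0 for Npnt and Rhbdl3.

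Cd28 is a plus-strand gene of chromosome 1 (bases 60716800 to 60773359) with 3 annotated transcripts and no overlapping gene. Its level was 3.78, 3.61 and 2.99 FPKM in chow-fed WT mice and 0.386, 1.30 and 0.907 FPKM in fat-fed WT mice. Chow-fed KO mice had 3.65, 3.87 and 3.51 FPKM and fat-fed KO mice 1.69, 1.82 and 2.28 FPKM. Chow libraries of both genotypes formed a narrow band above all high fat libraries, and on high fat diet the KO mice were above the WT mice. Means on chow were 3.998 times those on high fat diet in WT mice and 1.91 times in KO mice. The diet difference on the log2 scale was -1.28 (SE 0.16) in WT mice. In KO mice it was -0.68 (SE 0.16, 95% interval -1.04 to -0.32), and limma gave an adjusted p of 0.27, while enumerating all exact permutations gave a two-sided p of 0.1.

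Cd28 is known from T cells, so it was set beside their markers in each library. In bulk muscle, fewer cells of a type and less RNA per cell cannot be told apart. Across the 12 libraries Pearson's r between Cd28 and the summed T cell markers was 0.46 on the log2 scale, and single libraries show them apart. In replicate 1 of the WT mice on chow Cd28 was 3.78 FPKM. There Cd3e, a CD3 subunit of the T cell receptor complex, was listed at 0, and 4 of the 10 T cell markers were at 0. In replicate 2 of the same group Cd28 was 3.61 FPKM and Cd3e 6.46 FPKM. The KO mice on chow showed the same contrast, with Cd28 at 3.87 FPKM in replicate 2, where Cd3e was 0.0881 FPKM, and at 3.65 and 3.51 FPKM in replicates 1 and 3, where Cd3e was 6.33 and 6.58 FPKM. With the 3 libraries rich in lymphocyte genes left out, a choice made after seeing the data, the Cd28 difference was -1.26 in WT mice (SE 0.21). In KO mice it was then -0.74 (SE 0.26), from 1 chow library assumed to vary like the other groups, and limma gave an adjusted p of 1. Genes that work with Cd28 were listed as well. Of 15 co-stimulation genes listed, 12 were tested and none passed an adjusted p of 0.05 in either genotype, while 4 fell below an unadjusted p of 0.05 in KO mice, all with the lower level on high fat diet, where 4.73% of all genes did. Their median difference was -0.31 in WT and -0.67 in KO mice. Without those 3 libraries the medians were -0.03 and 0.05. Cd86, a ligand of Cd28, was 2.22 and 2.35 FPKM in the lymphocyte-rich KO libraries and 1.09 FPKM in the KO library on chow without them. Pik3r1, a regulatory subunit of the PI3-kinase that Cd28 engages, had the lowest p of the list in KO mice, with a log2 difference of -0.65 and a limma adjusted p of 0.36.

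**Figure D3:**
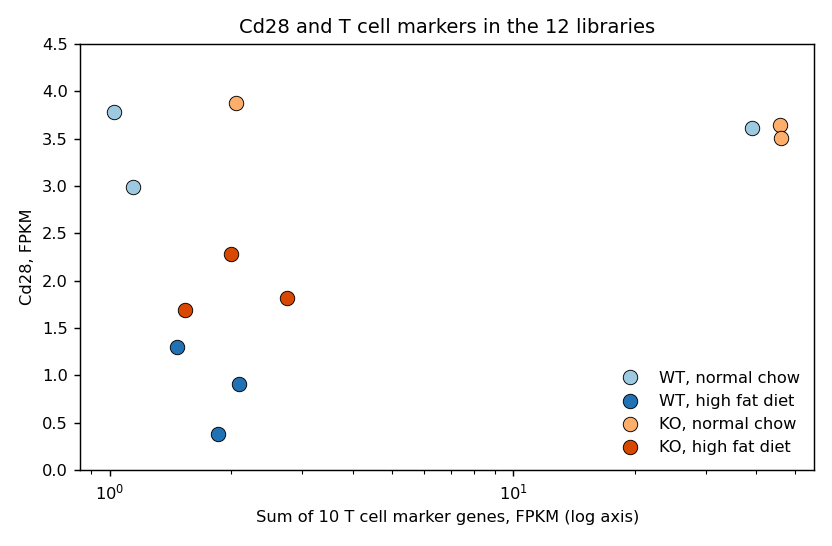
Cd28, in FPKM, against the sum of 10 T cell marker genes, in FPKM on a log axis, in the 12 libraries, coloured by group. The 6 chow libraries lie between 2.99 and 3.87 FPKM of Cd28 whether their T cell marker sum is 1.02 or 46.1 FPKM, and all 6 high fat libraries lie at or below 2.28 FPKM.

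The difference between the 2 diet effects, KO minus WT, was taken from the same fit. It contains the WT contrast that chose the genes, and genes picked for a large WT difference are likely to show a smaller one elsewhere, so it is given as a description with no test. On the log2 scale it was -1.46 for BC048679 (95% interval -2.25 to -0.67) and -0.75 for Chodl (-1.21 to -0.30). For the genes that were lower on high fat diet it was 1.33 for Npnt (0.52 to 2.13), 1.22 for Rhbdl3 (0.75 to 1.69) and 0.60 for Cd28 (0.10 to 1.11). Across all genes this difference passed an adjusted p of 0.05 in limma for 0 of 11945 genes (0%), and 6.25% had an unadjusted p under 0.05. In WT mice 12 genes (0.1%) had an adjusted p under 0.05 between the diets, the 5 among them. That count ran from 1 (without replicate 1 or replicate 2 of the chow-fed WT mice) to 32 (without replicate 2 of the fat-fed WT mice) with each library left out, and was 3 from the WT mice alone. Of the 5 genes, BC048679 and Chodl passed from the WT mice alone. Only BC048679 passed without replicate 1 or without replicate 2 of the chow-fed WT mice. Npnt also missed the threshold with a pseudocount of 0.1, without the filter, with the replicate number as a block and after quantile normalization. It missed as well without replicate 1, 2 or 3 of the fat-fed WT mice, with limma adjusted p of 0.12, 0.075 and 0.053. The same held without replicate 1 or 2 of the chow-fed KO mice. Chodl missed without replicate 1 of the fat-fed WT mice, at a limma adjusted p of 0.051. In the main fit Npnt at 0.049 and Hoxa10 at 0.043 lay just inside that threshold, and Nek6 and Zfp385b, both at 0.080, just outside. The other 7 of the 12 genes had diet differences in KO mice between -0.11 and 0.32 on the log2 scale, the highest being Decr1, an enzyme of fatty acid oxidation. Gadl1 was lower on high fat diet in WT mice by a difference of -1.25, and in KO mice its difference was 0.21 with an unadjusted limma p of 0.28.

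Genotype averaged over both diets is not correlated with the WT diet contrast in this balanced design, and was tested. Between KO and WT mice 103 of 11945 genes (0.862%) had an adjusted p under 0.05 in limma, and none of the 5 genes was among them. At an unadjusted p under 0.05 there were 26.5% of all genes and 1 of the 5. That gene was Cd28, higher in KO mice by 0.37 on the log2 scale (SE 0.12, limma adjusted p 0.089). This average joins 0.07 on chow with 0.68 on high fat diet, so it rests on the fat-fed mice. The fat-fed WT mice among them also entered the choice of Cd28. With genotype exchanged within each diet, the exact two-sided permutation p of the average was 0.03, where 0.005 is the smallest possible. The KO minus WT difference of BC048679 was 0.33 (SE 0.18), that of Chodl -0.18 (SE 0.10) and that of Rhbdl3 0.11 (SE 0.11), for which limma gave adjusted p of 0.25, 0.29 and 0.54. Npnt had a difference of 0.03 (SE 0.18), and its sign changed when single libraries were left out.

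Within each diet the KO and WT levels share WT mice with the contrast that chose the genes, so they are given as values only. On normal chow the KO minus WT difference was 1.06 for BC048679, 0.20 for Chodl, -0.63 for Npnt, -0.50 for Rhbdl3 and 0.07 for Cd28 on the log2 scale. KO and WT mice on chow did not overlap for 2 of the 5 genes, BC048679 and Rhbdl3, where 18.4% of all genes tested did not overlap. On high fat diet the differences were -0.40, -0.55, 0.69, 0.72 and 0.68 in the same order of genes. Groups on high fat diet did not overlap for 4 of the 5, all but BC048679, against 23.7% of all genes. For each of the 5 genes, the KO mice on high fat diet had a mean between the means of the WT mice on chow and on high fat diet. The choice of genes with WT means far apart favours this, and its share over all genes was not counted.

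Fatty acid response genes, which are known to answer to a high fat diet in muscle, were set beside the 5 genes, and the difference between genotypes was not tested for the list. Of 20 listed, 19 were tested, and at an unadjusted p under 0.05 there were 15 higher on high fat diet in WT mice and 3 in KO mice, against 4.42% and 6.56% of all genes. Only Decr1 passed an adjusted p of 0.05, in WT mice. The median difference was 0.71 in WT and 0.14 in KO mice. Fabp3, the fatty acid carrier of heart and muscle, had differences of 1.87 in WT and 0.75 in KO mice. It was 384, 421 and 993 FPKM in chow-fed KO mice and 731, 1076 and 965 FPKM in fat-fed ones, which overlap through replicate 3 on chow. Plin5, a lipid droplet protein of oxidative tissue, had 1.41 in WT and -0.13 in KO mice, and Pdk4, the kinase that holds back glucose oxidation, 1.44 and -0.08. Plin2, another lipid droplet protein, ran the other way, with -0.04 in WT and 0.58 in KO mice. On chow the mean of Pdk4 was already 245 FPKM in KO mice, against 104 FPKM in WT mice. The difference of BC048679 in KO mice, 1.47, was larger than that of any of the 19 genes, the highest of which was 0.75 for Fabp3. Its WT difference, which chose it, was larger than theirs too, at 2.93 against at most 1.87 for Fabp3. Genes related to Chodl by structure (5 tested) had medians of -0.17 in WT and 0.06 in KO mice, and genes of the neuromuscular junction (13 tested) had 0.04 and 0.19, with none past an adjusted p of 0.05 between the diets in either genotype. Layn, the closest of these relatives to Chodl, had -0.34 in WT and 0.06 in KO mice. Chrne, the adult subunit of the acetylcholine receptor at that junction, had -0.07 and 0.54. These lists were drawn up with earlier results of the same libraries known, and no test of a list was made.

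**Figure D4:**
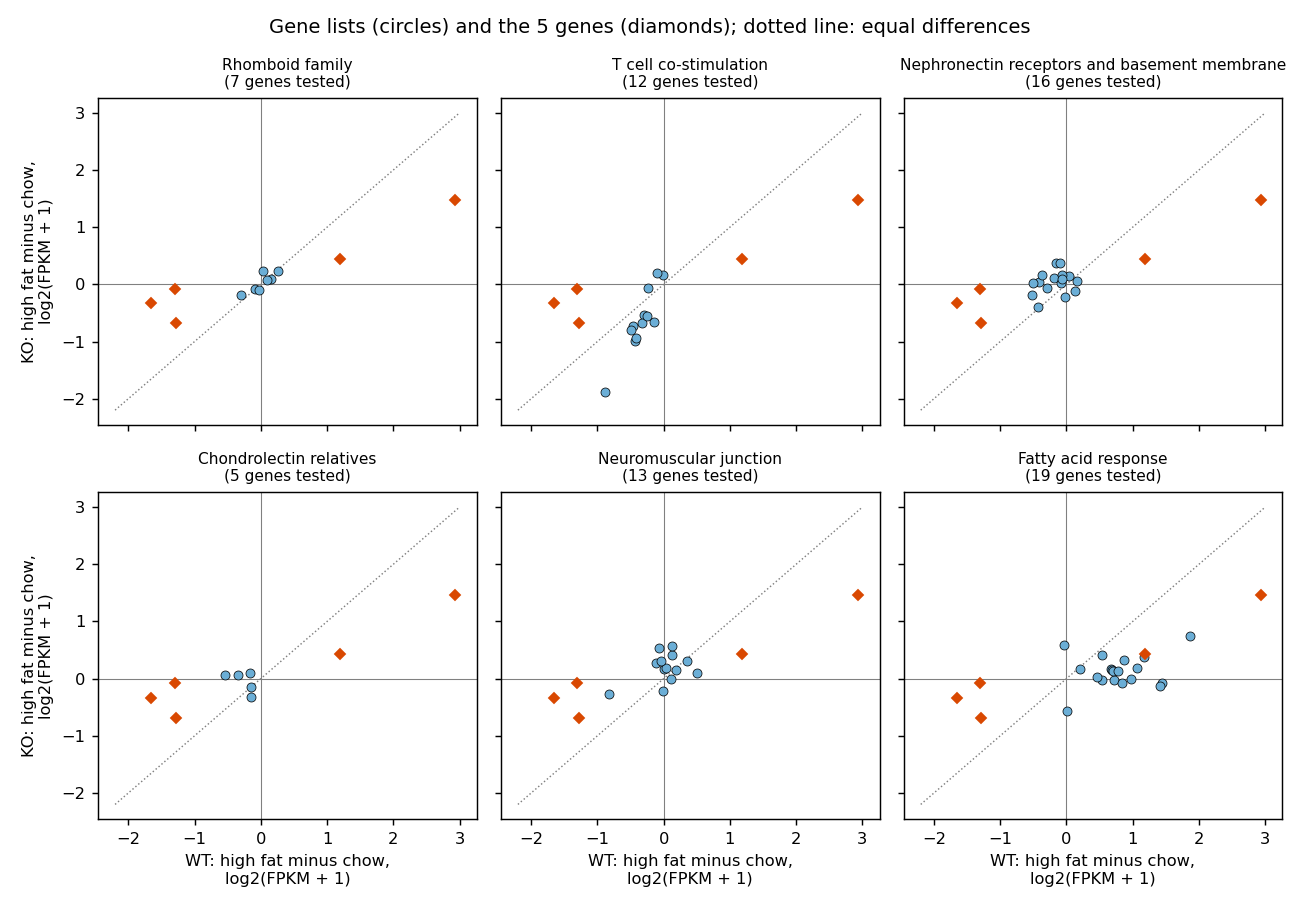
Diet difference in KO mice against that in WT mice, both in log2(FPKM + 1), for the tested genes of 6 lists (circles) and, in each panel, the 5 genes (diamonds), with a dotted line where both are equal. Fatty acid response genes lie mostly to the right, with a median of 0.71 in WT and 0.14 in KO mice, and BC048679 is the diamond at 2.93 and 1.47.

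The 5 genes also kept company with each other across the 12 libraries. Pearson's r of log2(FPKM + 1) was 0.89 between BC048679 and Chodl, and between 0.86 and 0.92 among Npnt, Rhbdl3 and Cd28. These values describe 12 libraries that share the same 4 groups, and the choice of the genes fixes much of them. Of all other genes tested, the closest to BC048679 were Fabp3, Fam131c and Ech1, an enzyme of fatty acid oxidation, each with r of 0.91. The closest to Chodl were Fxyd6, Thbs4 and Ech1, each at 0.93. Thbs4, a matrix protein of tendon and muscle, had a mean of 31.2 FPKM in chow-fed WT mice and 93.3 FPKM on high fat diet, and 30.1 and 50.7 FPKM in KO mice. Arsi, a sulfatase, was among the 3 closest genes of each of the genes that were lower, with r of 0.92 for Npnt, 0.93 for Rhbdl3 and 0.94 for Cd28. Arsi was 2.09 FPKM on chow and 0.768 FPKM on high fat diet in WT mice, and 1.77 and 1.57 FPKM in KO mice.

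Summed markers of other cell types were apart between the diets in some cases and overlapped in others, and no sum was tested. Tendon markers (3 of 3 detected in every library) summed to 4.70 to 9.82 FPKM in chow-fed WT mice and 27.0 to 33.6 FPKM on high fat diet, without overlap. In KO mice they summed to 5.24 to 10.99 FPKM on chow and 9.55 to 18.0 FPKM on high fat diet, with overlap. Tnmd, a defining tendon gene, was 0.888, 5.53 and 5.56 FPKM in chow-fed WT mice and 20.1, 23.5 and 23.3 FPKM in fat-fed ones. In KO mice Tnmd ran from 1.73 to 4.95 FPKM in chow-fed animals and from 5.02 to 10.5 FPKM in fat-fed ones. Macrophage markers (5 of the 6 listed are in the files) summed to 32.0 to 44.5 FPKM in chow-fed WT mice and 10.9 to 30.1 FPKM on high fat diet. In KO mice the sums were 50.02 to 68.4 FPKM on chow and 51.3 to 95.4 FPKM on high fat diet. Adipocyte markers (6 genes) ran from 120.1 to 778 FPKM on chow and 6.20 to 414 FPKM on high fat diet in WT mice, and from 865 to 1864 FPKM and 401 to 562 FPKM in KO mice. Replicate 1 of the WT mice on high fat diet had the lowest adipocyte and macrophage sums of the 12 libraries. It also had the lowest Npnt, Rhbdl3 and Cd28. With it left out, the WT differences were -1.45 for Npnt, -1.20 for Rhbdl3 and -1.09 for Cd28. In that library Myh7, a slow myosin, was 3.20 FPKM, against 138 and 111 FPKM in the other fat-fed WT mice. Tnnt1, a slow troponin, was 16.7 FPKM there, against 355 and 241 FPKM. Replicate 3 of the chow-fed WT mice, with the lowest Npnt of its group, had Myh7 at 16.9 FPKM, against 71.9 and 68.4 FPKM. In KO mice Myh7 lay between 42.8 and 77.7 FPKM. Schwann cell markers (5 genes) summed to 280 to 448 FPKM in chow-fed and 145.1 to 231 FPKM in fat-fed KO mice, and to 103 to 482 FPKM and 135 to 224 FPKM in WT mice. B cell markers stood at 49.0 to 55.9 FPKM in the 3 lymphocyte-rich libraries and at most 5.30 FPKM elsewhere. Endothelial, satellite cell and fibroblast sums lay between 69.9 and 96.7, 0.871 and 2.02, and 443 and 856 FPKM over all libraries, and keratinocyte markers reached 10.5 FPKM in 1 fat-fed WT library. The part of these cell types, or of slow fibres, in the levels of the 5 genes was not tested.

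**Figure D5:**
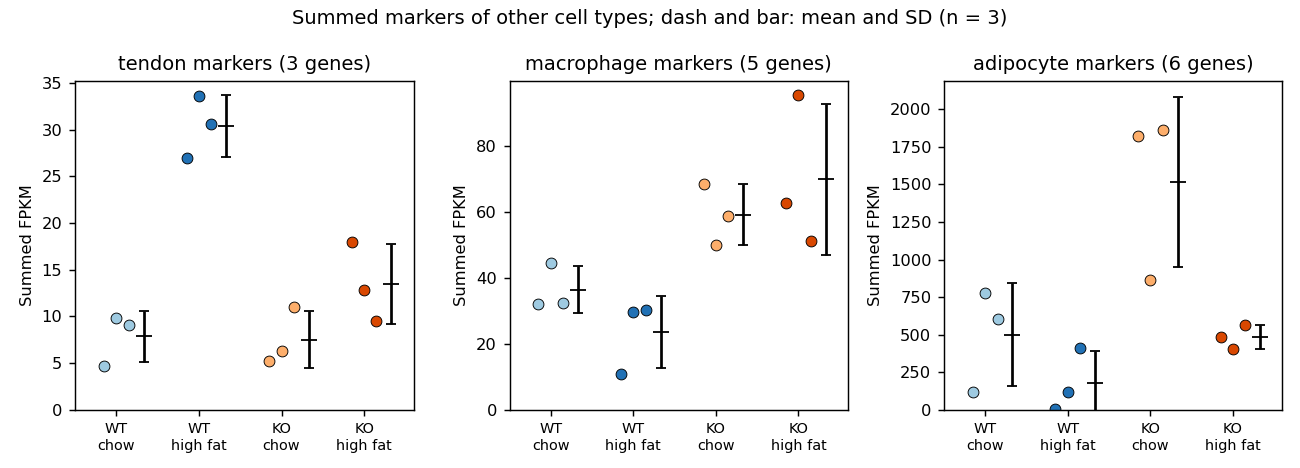
Summed FPKM of tendon, macrophage and adipocyte marker genes in the 12 libraries, with points for replicates 1 to 3 of each group and a dash and bar for the mean and SD (n = 3). Tendon markers lie between 27.0 and 33.6 FPKM in fat-fed WT mice and at or below 18.0 FPKM in all other libraries.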

How the data were processed

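Muscle RNA of 12 mice, 3 per group, was sequenced with paired-end reads. The authors deposited an FPKM value per row and library, 23179 rows for 22923 gene symbols, without pooling replicates. The submitters' processing notes name TopHat2 2.0.8b, Cuffdiff 2.1.1 and mm10, and the annotation is not given in the sources used here. The unit was read from the values. Median-of-ratios size factors lay between 0.998 and 1.01, so the values had already been scaled between libraries, and reads per library, and so the precision of low values, are unknown.

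Where a symbol was repeated, its highest row by mean was used. Genes that reached an FPKM of 1 in 3 or more libraries were tested on log2(FPKM + 1), a scale that understates changes of low genes, with limma 3.58.1 in R 4.3.3 (variance trend, 4 group means, no block, Benjamini-Hochberg adjustment over 11945 genes, two-sided, threshold 0.05). Permutation tests enumerated all arrangements. On simulated data the fit recovered most of the changes it was given, but only genes of below-median spread and not the lowest levels received them. That setting is easier than the data, so it does not show how many true diet differences the fit would miss. The 5 genes and all lists were chosen with earlier results of these data known, and the WT diet contrast chose the 5 genes. The shared spread also entered that choice, and the KO mice alone were fitted as an alternative. Named genes are the 5, the deleted genes, the 3 nearest each by correlation, list genes that passed or else up to 2 with the lowest KO diet p, markers, and genes next to the WT threshold. Itga8, Itgb1, Col4a1, Layn, Plin2, Plin5, Pdk4 and Gadl1 were chosen beyond that rule after their values were seen. Promoters come from RefSeq (GRCm38.p6), which had entries for 3 of the 5 genes, and positions from GENCODE M21. Groups follow titles. The alternatives were a pseudocount of 0.1, no filter, the replicate number as a block, genotype by label, quantile normalization, size factors, 1 genotype alone and each library left out. Left out after seeing the data were 3 libraries rich in T cell markers (over 10 FPKM in sum).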

Additional observations from a re-analysis of the deposited data

How the results depend on the processing

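None of the 5 genes passed an adjusted p of 0.05 in limma for the KO diet difference in 100 alternative fits of single genes. The sign was kept in 99, but in many of these it could not change. Leaving out a WT library, dropping the filter, adding the block or fitting KO mice alone alters the spread and not the KO estimate. For the averaged genotype difference none passed in 95 fits, and 85 kept the sign. The adjusted p for the KO diet ran from 0.058 to 0.80 for BC048679 and from 0.086 to 1 for Cd28. With each library left out, the KO diet difference stayed between 1.29 and 1.75 for BC048679, 0.28 and 0.55 for Chodl, -0.53 and -0.20 for Npnt, -0.77 and -0.62 for Cd28, and -0.20 and 0.065 for Rhbdl3 (0.065 without replicate 2 of the chow-fed KO mice). The genotype difference of Npnt then ran from -0.10 to 0.13. The cause of these changes was not tested.

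Genes passing between the diets in KO mice numbered 0, but 6 with no filter, 9 after quantile normalization, 7 from the KO mice alone and 0 to 10 with each library left out (10 without replicate 1 of the fat-fed WT mice, 4 without replicate 2 of the chow-fed KO mice). The 12 genes passing between the diets in WT mice became 7 with the replicate number as a block, 1 without the 3 lymphocyte-rich libraries and 0 with genotype by label. Genes passing between genotypes numbered 103, but 42 with no filter, 200 after quantile normalization, 11 without the 3 lymphocyte-rich libraries, 0 with genotype by label and 10 (without replicate 1 of the chow-fed WT mice) to 1208 (without replicate 2 of the chow-fed KO mice) with each library left out. With the replicate number as a block there were 0 for the KO diet and 40 for genotype, and BC048679 in KO mice had an adjusted p of 0.20. The deviations of same-numbered mice on the 2 diets had a mean correlation of -0.22 in KO mice (0 of 3 pairs over 0.1) and 0.17 in WT mice (2 of 3), so not every pair passed and the numbers were not taken as pairs.

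In the order BC048679, Chodl, Npnt, Rhbdl3 and Cd28, the WT difference was 3.45, 1.51, -2.23, -1.58 and -2.01 with a pseudocount of 0.1, and 2.04, 0.65, -0.94, -0.45 and -0.70 with genotype by label. The genotype difference by label was 0.13 for Chodl, -0.47 for Npnt, -0.33 for Rhbdl3 and -0.14 for Cd28, and -0.057 for Npnt after quantile normalization. KO minus WT diet effects by label were 0.035, 0.23, 0.20, -0.26 and -0.47 in that order. With a pseudocount of 0.1 they were 1.81 for Npnt, 1.49 for Rhbdl3 and 1.10 for Cd28, and without the lymphocyte-rich libraries 0.95 for Npnt and 0.96 for Rhbdl3. Grouping by label mixes libraries with and without Cryab. The FPKM files give no read counts, so counting error of the low values is unknown.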
